A study of Mus musculus with 8 samples.

Results

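The enzymes that make and break down gamma-aminobutyric acid (GABA) and serotonin were followed in the pancreatic islets of male mice of the C57Bl/6 strain, either wild type or with a knockout of Irs2 (Irs2-/-), which encodes an adaptor of insulin and growth factor signalling. The 9 genes were fixed by name: Gad1, Gad2 and Abat of the GABA pathway, and Tph1, Tph2, Ddc, Slc18a2, Maoa and Maob of the serotonin pathway. They were found by 14 probe sets of 45037 on the array, and each gene was read from the brightest of its probe sets on average, as were all 18193 genes with a single-gene probe set. The 4 groups, with 2 oligonucleotide arrays each, were wild type on distilled water, wild type on sodium tungstate, Irs2-/- on distilled water and Irs2-/- on sodium tungstate, a tungsten salt known to lower blood glucose when taken by mouth. Mice on distilled water are called untreated and those on tungstate treated. They drank these for 21 days, from 10 to 13 weeks of age. The tungstate concentration is 2 mg/ml in the design text and 2 mg/dl in the sample labels, so it is not settled here. The samples of a group are described as independent, but the sources used here do not say whether islets of several mice were pooled, so the p-values here cover the spread from sample to sample, which may be technical.

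GABA is made from glutamate by glutamate decarboxylase, which Gad1 and Gad2 encode, and is broken down by GABA transaminase, the product of Abat. Outside the brain it is plentiful in islet beta cells, which release it. Serotonin is made from tryptophan by tryptophan hydroxylase (Tph1 in peripheral tissues, Tph2 in neurons) and then by aromatic amino acid decarboxylase (Ddc), which also makes dopamine. It is loaded into vesicles by the transporter that Slc18a2 encodes and broken down by the monoamine oxidases Maoa and Maob. Beta cells can make and store serotonin, and they raise Tph1 in pregnancy under lactogenic hormones. Mast cells and enterochromaffin cells of the gut are other known sources of peripheral serotonin.

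Without Irs2, on plain water, the level of 4 members was lower: Gad1, Maob, Ddc and Abat. Tph1 moved the other way, with a higher level on those arrays alone, and in Irs2-/- mice given tungstate it was back near the wild-type level. Gad2 and Maoa, the sister enzymes of Gad1 and Maob, did not pass any test. Levels are the deposited log2 expression values, on which a difference of 1 is a doubling. Genes with a mean over the 8 arrays below 5.27, the 40th percentile of the probe sets, were left out of the main test, which kept 6 of the 9 members and 13369 genes in all. Tph1, Tph2 and Slc18a2 fell under this level and were tested in a fit without the filter, over all 18193 genes. Differences are given as log2 ± standard error (SE) from limma, with a spread pooled over the 4 groups, and the adjusted p is by Benjamini and Hochberg over all genes of the fit, with a threshold of 0.05.

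Upstream sequences of 3 members are shown because the text dwells on them. Gad1 had the largest difference, and Ddc was read by a pair of probe sets with differences of unequal size. Tph1 was the one member to pass for tungstate, in the fit without the filter. The sequences are from RefSeq (GRCm38.p6), where 7 of the 9 members had an entry (not Abat and Maob), and run 5′ to 3′ over the 250 bases before a start site. Ddc and Tph1 have 2 listed start sites each. On the minus strand, the outer Ddc window is chr11:11898145-11898394 and the inner one chr11:11890409-11890658, and the Tph1 windows are chr7:46672538-46672787 and chr7:46667378-46667627. The Gad1 window is chr2:70561879-70562128 on the plus strand. As the RefSeq span of Gad1 begins at 70561303, this window and its start site lie inside the gene. Capitals mark matches, on either strand, to the TATA box TATAAA, the GC box GGGCGG of Sp factors and the homeodomain core TAATTA.
Gad1: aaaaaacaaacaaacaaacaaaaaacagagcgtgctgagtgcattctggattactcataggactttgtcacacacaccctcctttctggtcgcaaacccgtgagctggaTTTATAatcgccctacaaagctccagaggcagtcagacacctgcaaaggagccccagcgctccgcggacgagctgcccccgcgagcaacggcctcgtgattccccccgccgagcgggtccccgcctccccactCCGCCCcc
Ddc, outer start: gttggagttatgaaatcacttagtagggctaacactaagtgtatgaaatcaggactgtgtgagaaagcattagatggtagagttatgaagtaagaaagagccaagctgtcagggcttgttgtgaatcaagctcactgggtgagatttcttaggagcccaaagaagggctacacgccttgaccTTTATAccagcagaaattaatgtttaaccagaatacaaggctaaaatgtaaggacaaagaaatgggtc
Ddc, inner start: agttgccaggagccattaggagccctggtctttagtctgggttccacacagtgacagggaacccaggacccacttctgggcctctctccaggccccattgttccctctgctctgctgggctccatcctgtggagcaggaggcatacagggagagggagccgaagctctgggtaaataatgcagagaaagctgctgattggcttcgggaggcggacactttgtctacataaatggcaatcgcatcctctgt
Tph1, outer start: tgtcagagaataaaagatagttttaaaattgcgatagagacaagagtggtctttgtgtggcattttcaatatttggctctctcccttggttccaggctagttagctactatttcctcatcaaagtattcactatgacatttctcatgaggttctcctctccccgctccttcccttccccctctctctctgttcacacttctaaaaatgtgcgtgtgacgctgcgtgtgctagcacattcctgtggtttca
Tph1, inner start: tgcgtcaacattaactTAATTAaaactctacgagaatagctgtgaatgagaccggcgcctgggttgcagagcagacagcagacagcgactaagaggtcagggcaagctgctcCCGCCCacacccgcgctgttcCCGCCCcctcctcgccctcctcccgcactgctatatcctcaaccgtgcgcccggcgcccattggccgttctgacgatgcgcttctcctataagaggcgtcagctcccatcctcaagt
The windows differ in base composition. Gad1 held 17 CG dinucleotides and the inner Tph1 window 19, against 4 and 1 in the inner and outer Ddc windows, 5 in the outer Tph1 window and a median of 6 over all 32851 windows of the table. A TATA box match lay 141 to 136 bases before the Gad1 start and 68 to 63 bases before the outer Ddc start. Such a match is found in 12.4% of all windows. GC box matches, found in 32.7% of windows, lay near the Gad1 start (8 to 3 bases before it) and at 2 places before the inner Tph1 start, where the homeodomain core also matched (4.84% of windows). The cAMP response element TGACGTCA (1.55% of windows) and the STAT site TTCNNNGAA (7.02%) had no match in these 5 windows, which says only that these letters are not in them. None of the motifs printed overlaps another in these windows, and a match here is a description of the sequence.

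Whole-series checks bear on these values as follows. Irs2, the deleted gene, read 7.61 to 7.91 on the wild-type and 4.54 to 4.89 on the Irs2-/- arrays. The islet hormone gene Ins2 read 14.72 to 14.75 on all 8 arrays, so the labelled tissue is borne out, but it sits at the top of the scale. The 18S ribosomal control probe sets were lowest on the untreated Irs2-/- arrays (11.05 and 10.63, against 11.12 to 12.70 elsewhere), and so was the difference between 3' and 5' Gapdh control probe sets (0.415 and 0.367, against 0.423 to 0.575), with treated Irs2-/- replicate 2 close to them on each measure. The mean level of 11 measured acinar markers, enzymes of the exocrine tissue that islet preparations carry, was 9.08 to 11.72 on the wild-type and 11.15 to 12.07 on the Irs2-/- arrays. The part of 18S and of the Gapdh measure in the results was not tested, and the acinar level was tested as a covariate. The median SE of a difference between groups was 0.14.

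**Figure D1:**
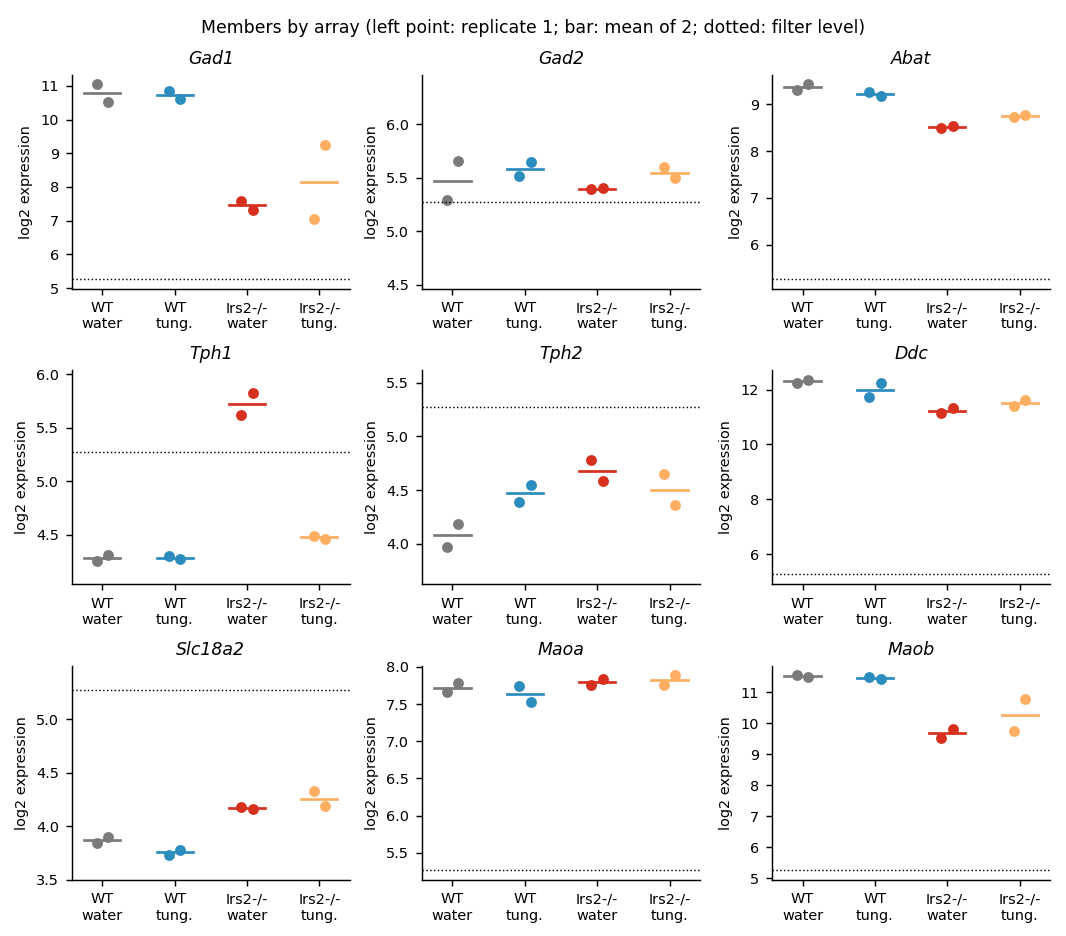
Log2 expression of the 9 members on each array (points, left replicate 1 and right replicate 2), with the mean of each group of 2 arrays as a bar and the filter level of 5.27 as a dotted line. Each vertical axis has its own range and does not start at 0. Gad1, Maob, Ddc and Abat sit lower on the Irs2-/- arrays, and Tph1 rises above the filter level on the 2 untreated Irs2-/- arrays alone.

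GABA synthesis showed the largest difference of the group, and it lay in Gad1. This gene encodes the decarboxylase isoform that mouse islets mainly use. Wild-type islets read 11.05 and 10.52 with water and 10.85 and 10.61 with tungstate, and Irs2-/- islets 7.60 and 7.33 with water and 7.05 and 9.24 with tungstate. All 4 wild-type arrays were above all 4 Irs2-/- arrays, and the treated Irs2-/- arrays lay far apart from each other, with replicate 1 the lowest of the 8 and replicate 2 the highest of the 4 without Irs2. In untreated mice Gad1 fell by 3.32 ± 0.58, which is 9.98-fold (limma adjusted p = 0.0111). The call ended without untreated wild-type replicate 1 (-3.05, adjusted p = 0.0551 by limma). A second Gad1 probe set read 8.05 and 7.71, 8.08 and 7.93, 5.85 and 5.58, and 5.40 and 6.44 on the arrays in the same order. Again the wild-type arrays were all above the Irs2-/- arrays and treated Irs2-/- replicate 2 was the highest of those without Irs2, with a difference in untreated mice of -2.17 ± 0.30 (limma adjusted p = 0.00844 over all 45037 probe sets, of which 3.99% were called lower). In whole islets, fewer cells of a type and less RNA per cell cannot be told apart.

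Gad2, the other decarboxylase gene, read between 5.29 and 5.66 on all 8 arrays, close to the filter level. Its difference in untreated mice was -0.08 ± 0.14 (95% interval -0.40 to 0.25, limma adjusted p = 0.756), so a change of more than about that interval was not seen, at a level where changes may be hidden. Its second probe set read 4.43 to 4.91.

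Abat, which removes GABA, read 9.30 and 9.43 with water and 9.25 and 9.18 with tungstate in wild-type islets, against 8.48 and 8.54 with water and 8.74 and 8.76 with tungstate in Irs2-/- islets. The 4 groups did not overlap, and the untreated Irs2-/- arrays were lowest. In untreated mice it fell by 0.85 ± 0.11, or 1.80-fold (limma adjusted p = 0.00366), and the call held in 19 of 19 alternative fits. With the mean of its 2 probe sets the difference was -0.43, since the second probe set read 4.70 to 5.01 on every array.

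In the serotonin pathway Ddc and Maob fell and the first enzyme, Tph1, rose. Ddc, the decarboxylase of the second step, read 12.25 and 12.35 with water and 11.74 and 12.24 with tungstate in wild-type islets. In Irs2-/- islets it read 11.13 and 11.31 with water and 11.40 and 11.63 with tungstate. Wild-type and Irs2-/- arrays did not overlap. In untreated mice it fell by 1.08 ± 0.18, or 2.11-fold (limma adjusted p = 0.00929). The call ended without untreated wild-type replicate 2 (-1.03, adjusted p = 0.0539 by limma) and without untreated Irs2-/- replicate 1 (-0.99, adjusted p = 0.0507).

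The second Ddc probe set read 8.18 and 8.38 with water and 7.63 and 7.93 with tungstate in wild-type islets, and 5.47 and 5.92 with water and 6.21 and 6.44 with tungstate in Irs2-/- islets. Here too every Irs2-/- array was below every wild-type array. Its difference in untreated mice was larger, at -2.58 ± 0.18 (limma adjusted p = 0.00129 over all probe sets). It also passed in treated mice (-1.46 ± 0.18, limma adjusted p = 0.0446, with 0.0577% of probe sets called lower there) and when tungstate-fed Irs2-/- mice were set against wild-type mice on water (-1.96 ± 0.18, limma adjusted p = 0.0199, against 0.0466%). The difference between the probe sets within an array was wider by 1.24 without Irs2 (-5.36 ± 0.22 against -4.11 ± 0.14, SD, n = 4 arrays a genotype over both treatments). The arrays of the genotypes did not overlap in it. It was looked at after the values were seen, so it is given as a description, without a p-value. Which transcript of Ddc, or which of the start sites printed above, each probe set reads was not determined.

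Maob, one of the oxidases that degrade amines and a gene highly expressed in islets, read 11.54 and 11.48 with water and 11.48 and 11.41 with tungstate in wild-type islets. In Irs2-/- islets it read 9.54 and 9.83 with water and 9.75 and 10.79 with tungstate. As with Gad1, treated Irs2-/- replicate 2 lay between the other Irs2-/- arrays and the wild type. In untreated mice Maob fell by 1.83 ± 0.29, or 3.56-fold (limma adjusted p = 0.0082), and the call held in 19 of 19 alternative fits. Maoa, its neighbour on the X chromosome and sister enzyme, read 7.53 to 7.88 on all 8 arrays. The Maoa difference in untreated mice was 0.08 ± 0.12 (95% interval -0.21 to 0.36, limma adjusted p = 0.723). A second Maoa probe set read 5.08 to 5.68, near the filter level, and the untreated genotypes overlapped in it.

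Tph1, the rate-limiting enzyme of serotonin synthesis outside the brain, read 4.26 and 4.31 with water and 4.30 and 4.27 with tungstate in wild-type islets, and 5.62 and 5.82 with water and 4.49 and 4.46 with tungstate in Irs2-/- islets. Of the 8 arrays, only those of Irs2-/- mice on water stood above the filter level, and those of Irs2-/- mice on tungstate lay just above the wild-type arrays. In untreated mice Tph1 rose by 1.44 ± 0.11, or 2.71-fold (limma adjusted p = 0.000738 in the fit without a filter, where 6.66% of genes were called higher). With tungstate in Irs2-/- mice it fell by 1.25 ± 0.11, or 2.37-fold (limma adjusted p = 0.0044, where 0.478% of genes were called lower). Both calls held in 13 of 13 alternatives to that fit. In treated mice the genotypes differed by 0.19 ± 0.11 (95% interval -0.07 to 0.45, limma adjusted p = 0.539, where 0.753% of genes passed), and in wild-type mice the tungstate difference was 0.01 ± 0.11. The difference between the tungstate effects of the genotypes was -1.25 ± 0.16 (limma adjusted p = 0.0661 in that fit, where 0.022% of genes passed, and 0.0233 with a variance trend and robust moderation). Levels this low understate a fold change, so the sizes are not exact.

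Tph2, the neuronal hydroxylase, read 3.97 and 4.19 with water and 4.39 and 4.54 with tungstate in wild-type islets, and 4.78 and 4.59 with water and 4.65 and 4.36 with tungstate in Irs2-/- islets. The groups on water did not overlap, and those on tungstate did. Its rise in untreated mice (0.60 ± 0.15, limma adjusted p = 0.0337 without a filter) ended in 7 of 13 alternatives, among them leaving out any 1 of the 2 untreated wild-type arrays (adjusted p = 0.174 and 0.0763), the treated wild-type arrays (0.0633 each) or the untreated Irs2-/- arrays (0.147 and 0.0504), and the acinar covariate (0.102). Slc18a2, the vesicle transporter, read 3.73 to 3.90 on the wild-type and 4.16 to 4.33 on the Irs2-/- arrays. The 4 Irs2-/- arrays were above the 4 wild-type arrays, by 0.30 ± 0.11 in untreated mice (limma adjusted p = 0.109) and 0.50 ± 0.11 in treated mice (limma adjusted p = 0.0814, and 0.0327 with a variance trend and robust moderation). Every array was far below the filter level, and neither difference passed in the fit without a filter.

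**Figure D2:**
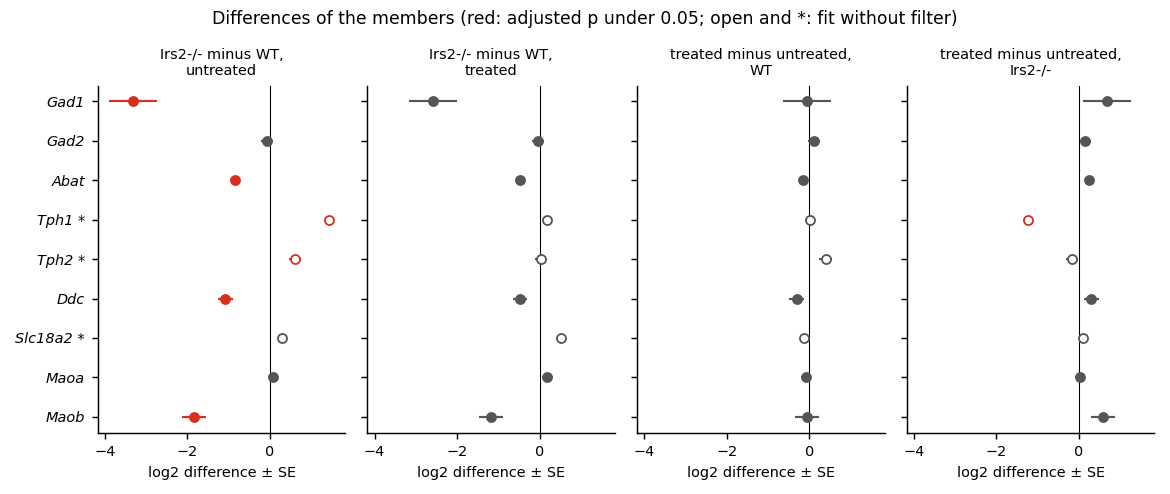
Log2 difference of each member (points) with its SE (bars) for 4 comparisons, from the limma fit over all genes past the filter (filled) or without a filter (open, marked *), in red where the adjusted p was under 0.05. In untreated mice Gad1, Abat, Ddc and Maob were lower and Tph1 and Tph2 higher without Irs2, and Tph1 alone was red for tungstate, in Irs2-/- mice.

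In untreated mice 4 of 6 tested members were therefore lower and 0 higher by limma, against 8.52% of all 13369 genes called lower and 8.27% higher (16.8% in all). The median difference of the 6 was -0.97, and -0.01 over all genes. Without a filter 6 of 9 members passed, and 12.7% of genes. The 9 members, like the pathway lists below, were chosen with earlier results of these data known. The shares are therefore a description and no test of the members as a set. The 4 calls held with the acinar level as a covariate.

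Between the genotypes on tungstate, each of the 4 lower members had a difference nearer 0 than on water, and none passed. In treated mice Gad1 differed by -2.59 ± 0.58, Maob by -1.18 ± 0.29, Ddc by -0.47 ± 0.18 and Abat by -0.47 ± 0.11 (limma adjusted p = 0.0845, 0.0996, 0.241 and 0.088). Of the 6 tested members 0 passed here, where 1.02% of genes did, and 4 had an unadjusted p under 0.05. Against untreated wild-type islets, the treated Irs2-/- islets differed by -2.64 ± 0.58 for Gad1, -1.24 ± 0.29 for Maob, -0.79 ± 0.18 for Ddc and -0.62 ± 0.11 for Abat. Again 0 of 6 passed in limma (0.352% of genes did) and 4 had an unadjusted p under 0.05, with adjusted p from 0.0618 to 0.0959 for these 4. These comparisons share arrays with each other and are not independent.

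Within Irs2-/- mice, the tungstate difference was 0.68 ± 0.58 for Gad1, 0.59 ± 0.29 for Maob, 0.29 ± 0.18 for Ddc and 0.23 ± 0.11 for Abat, with limma adjusted p from 0.4 to 0.655. Of the 6 tested members 0 passed in limma (0 at an unadjusted p under 0.05 as well), where 0.494% of genes did, and without a filter 1 of 9 passed, Tph1, where 0.5% of genes did. For Gad1 and Maob the outcome rested on a single array. Without treated Irs2-/- replicate 1 their differences were 1.77 and 1.11 (limma adjusted p = 0.0322 and 0.0356), and without replicate 2 of that group Gad1 was -0.41 and Maob 0.07, and in treated mice both genotype differences then passed (-3.68 for Gad1 and -1.69 for Maob, limma adjusted p = 0.00203 and 0.00351). In wild-type mice 0 of the 6 tested members passed for tungstate in limma (0 at an unadjusted p under 0.05, and 0% of genes called). Their differences ran from -0.31 ± 0.18 for Ddc to 0.11 ± 0.14 for Gad2. Tph2, below the filter, differed by 0.39 ± 0.15 in the fit without it (unadjusted p = 0.0278 by limma). Its arrays on tungstate lay above those on water, and the difference did not pass after adjustment. The arrays on water and on tungstate did not overlap, with tungstate lower, for 4 of 9 members in wild-type islets (18.5% of all 18193 genes), and with tungstate higher for 4 of 9 in Irs2-/- islets (18.9% of genes). Both held together for 3 of 9, Abat, Ddc and Slc18a2, and for 2.68% of genes. The tungstate effect did not differ between the genotypes by limma's test for any of the 6 (0 passed, 2 at an unadjusted p under 0.05, 0.0224% of genes called).

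The mean levels of the beta cell and of the delta cell markers were lower on the Irs2-/- arrays, where the 4 members were lower. Of 10 markers fixed for beta cells, all measured, 6 fell in untreated mice, such as the glucose transporter gene Slc2a2 (-2.30). The prohormone convertase gene Pcsk1 rose (0.59), and 8.52% of all genes were called lower there. The mean level of the 10 markers was 11.93 and 11.98 with water and 12.01 and 11.93 with tungstate in wild-type islets. In Irs2-/- islets it was 10.91 and 11.06 with water and 11.11 and 11.65 with tungstate. Treated Irs2-/- replicate 2 was the highest of the Irs2-/- arrays here too, as for Gad1, Maob, Ddc and, by little, Abat (8.76 against 8.74 on replicate 1). Slc2a2 read 12.43 there against 11.17 on replicate 1. Ins2 and the amylin gene Iapp differed by -0.03 and 0.04, and did not pass. The 3 measured alpha cell markers averaged 11.68 to 12.07 over all arrays, 0 of them past limma's test in untreated mice. Of these, Gcg (14.15 to 14.39) and Ttr (13.89 to 14.12) sit near the top of the scale, where changes may be hidden. The other, Irx2, differed by -0.49 in untreated mice. The 4 delta cell markers averaged 9.36 to 9.62 on the wild-type and 8.77 to 9.12 on the Irs2-/- arrays. Of 3 tested, 2 fell in untreated mice, the somatostatin gene Sst (-1.35) and Hhex (-0.60), and 1 in treated mice. The other, Rbp4, did not go with them. It differed by 0.33 in untreated mice and by -1.04 with tungstate in Irs2-/- mice, and neither difference passed. The part of these cells in the members' results was not tested.

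**Figure D3:**
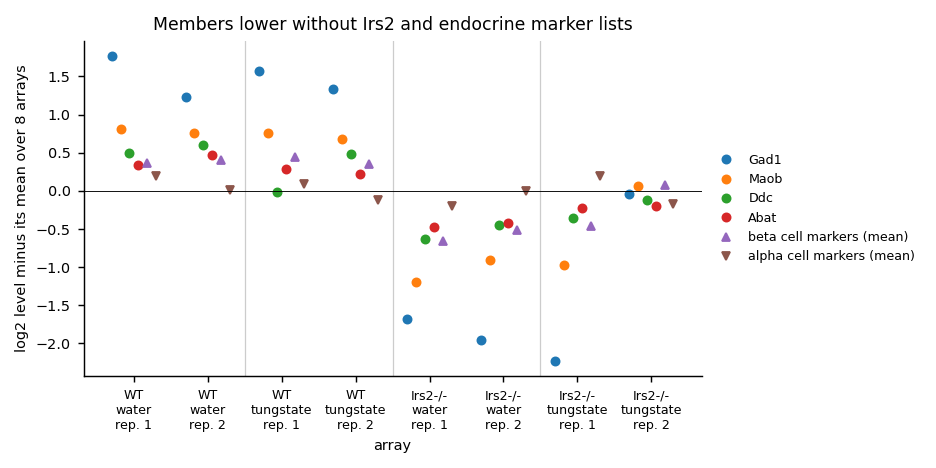
Log2 level of Gad1, Maob, Ddc and Abat (circles) and the mean of the beta cell and alpha cell marker lists (triangles) on each of the 8 arrays, each minus its own mean over the arrays. The 4 genes and the beta cell markers lie lower on the Irs2-/- arrays. Of these arrays, treated Irs2-/- replicate 2 is nearest the wild type for all of them, for Abat by little.

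Markers of macrophages and of lymphocytes were highest, as Tph1 was, on the arrays of Irs2-/- mice on water. All 10 macrophage markers were measured, and their mean level was 6.74 to 6.82 in wild-type islets, and 7.94 and 8.25 with water and 7.00 and 7.02 with tungstate in Irs2-/- islets. In untreated mice 9 of 9 tested markers rose, where 8.27% of all genes were called higher. With tungstate in Irs2-/- mice 5 of 9 fell, where 0.494% of genes passed in either direction. The phagocyte gene Aif1 was among both (1.82 and -1.66). The 7 measured lymphocyte markers averaged 5.10 to 6.63 in wild-type islets, and 8.35 and 7.28 with water and 5.66 and 6.42 with tungstate in Irs2-/- islets. In untreated mice 3 of 7 rose, the T cell genes Cd3d (2.09), Cd3g (2.64) and Cd2 (2.34). Their tungstate differences in Irs2-/- mice were -1.74, -2.71 and -2.25 and did not pass. The 10 mast cell markers averaged 4.78 to 4.88 on the wild-type and 4.94 to 5.14 on the Irs2-/- arrays. Only 4 of them lay above the filter level, of which Hdc, the enzyme that makes histamine, rose (0.94), while the mast cell protease gene Cpa3 read 4.77 to 5.30 on the 8 arrays, below the filter level on average. The 7 markers of enterochromaffin and other gut endocrine cells averaged 5.47 to 5.70 on the wild-type and 5.86 to 6.32 on the Irs2-/- arrays. Of 3 tested, 1 rose in untreated mice, the tachykinin gene Tac1 (2.96), which read 10.13 and 9.58 in Irs2-/- islets with tungstate, above both Irs2-/- arrays with water. Cck, a gut hormone gene below the filter, rose by 1.35 in the fit without it (limma adjusted p = 0.00585), and its tungstate difference in Irs2-/- mice was -0.94 (limma adjusted p = 0.0935). The part of these cells in the Tph1 result was not tested.

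**Figure D4:**
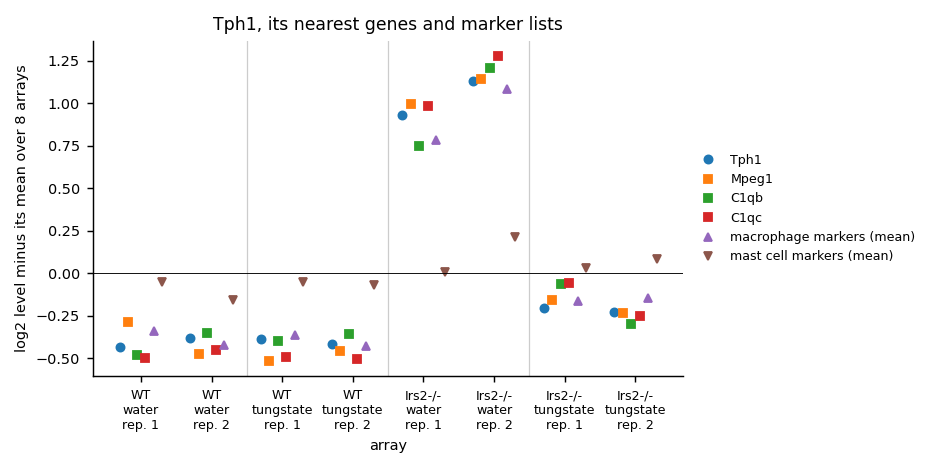
Log2 level of Tph1 (circles), its 3 nearest genes Mpeg1, C1qb and C1qc (squares) and the mean of the macrophage and mast cell marker lists (triangles) on each array, each minus its own mean over the 8 arrays. Tph1, the 3 genes and the macrophage markers stand high on the 2 untreated Irs2-/- arrays, and the mast cell markers vary little.

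Genes with the most similar patterns were found as the smallest root mean square difference between log2 profiles over the 8 arrays, each profile centred on its own mean. The measure describes these arrays, which share their groups. Nearest to Gad1 were Cox6a2, a respiratory chain subunit (0.41), the cation channel gene Mcoln3 (0.50) and T2 (0.51), against a spread of 1.60 of Gad1 itself. Maob was matched most closely, by Fras1, a matrix protein gene (0.055), the adhesion gene Tenm2 (0.11) and Cyp4f39 (0.12), against a spread of 0.83. For Abat (spread 0.35) they were the copper transporter gene Atp7a (0.058), Nars2 (0.060) and Negr1 (0.063). Ddc (0.44) was nearest to Rhobtb1 (0.11), Prdm10 (0.12) and the amino acid transporter gene Slc1a4 (0.13). For Tph1 (0.60) the genes were sought over all 18192 others without a filter, a search added after its values were seen. They were Mpeg1 (0.082) and the complement genes C1qb (0.093) and C1qc (0.096), and all 3 are known from macrophages. C1qb and C1qc are also in the macrophage marker list.

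**Figure D5:**
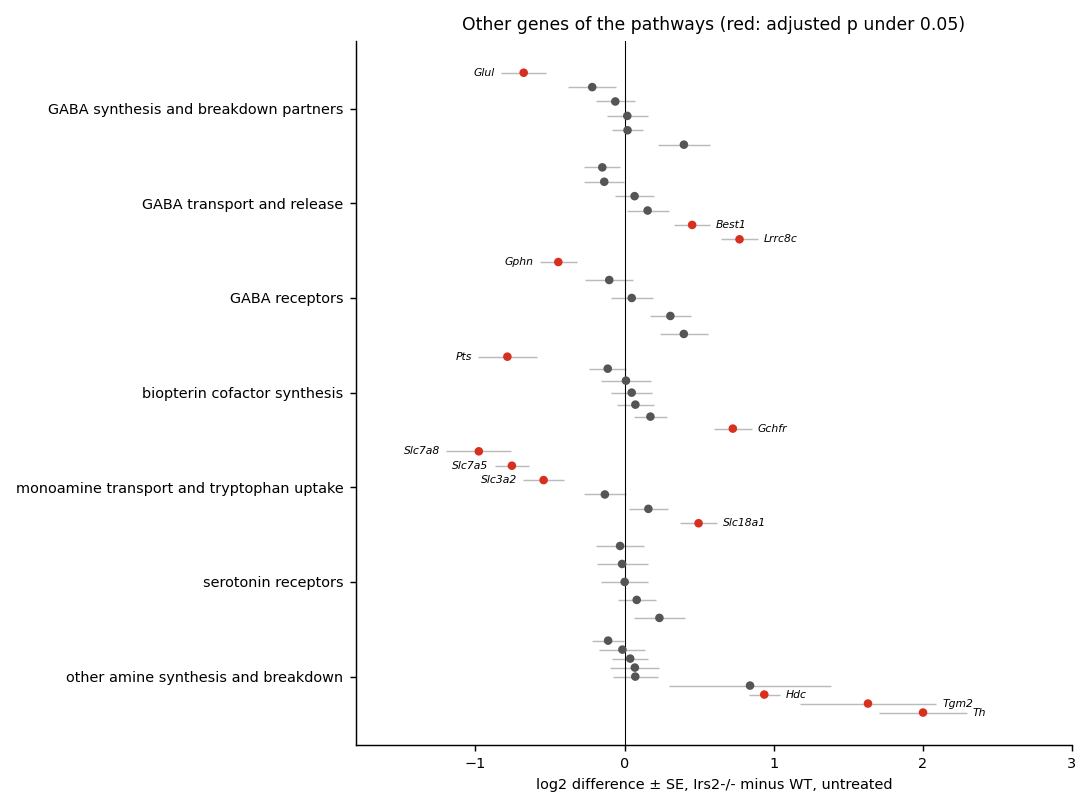
Log2 difference (points) with SE (bars) between Irs2-/- and wild-type islets of mice on water for 44 tested genes in 7 pathway lists, in red and named where the limma adjusted p was under 0.05. Of these, 7 were higher and 6 lower, with Th the highest and Slc7a8 the lowest.

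Other genes of the pathways were taken from 7 lists of 87 genes, of which 15 had no single-gene probe set, 28 lay below the filter and 44 were tested. In untreated mice 7 were higher and 6 lower without Irs2, against 8.27% and 8.52% of all genes, and the median difference was 0.04. Without untreated wild-type replicates 1 and 2 the 13 calls became 5 and 5, without treated wild-type replicates 1 and 2 they became 6 and 6, and without untreated Irs2-/- replicates 1 and 2 they became 5 and 7. With the acinar level as a covariate there were 7. In treated mice 0 of 44 passed, and 0 did for tungstate in either genotype.

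In the 3 GABA lists, 2 genes rose and 2 fell in untreated mice. Among 6 tested partners of GABA synthesis and breakdown 1 fell and 0 rose: Glul, which makes glutamine from glutamate (-0.68 ± 0.15, limma adjusted p = 0.0241). The transaminase gene Got1 (0.40 ± 0.18) and Aldh5a1, which takes the next step after Abat (-0.22 ± 0.16), did not pass. Among 6 tested transport and release genes 2 rose, the volume-regulated channel subunit gene Lrrc8c (0.77 ± 0.12, limma adjusted p = 0.0082) and the chloride channel gene Best1 (0.45 ± 0.12, adjusted p = 0.0383), while the taurine transporter gene Slc6a6 read -0.15 ± 0.12. Of 21 genes in the receptor list 12 lay below the filter, and 1 of 5 tested passed. This was Gphn, which encodes the scaffold gephyrin and not a receptor subunit. It fell by 0.44 ± 0.13 (limma adjusted p = 0.0483). Gabbr1, a subunit of the metabotropic receptor (0.40 ± 0.16), and the channel subunit gene Gabra4 (0.31 ± 0.14) did not pass. Glul, Best1 and Gphn kept their calls in 13 of 19, 9 of 18 and 5 of 19 alternatives, and Lrrc8c in 18 of 19.

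Tryptophan uptake and amine genes held the larger differences. The carrier that brings tryptophan and other large neutral amino acids into cells is built of Slc7a5 or Slc7a8 with Slc3a2, and all 3 genes fell: Slc7a5 by 0.76 ± 0.12, Slc7a8 by 0.98 ± 0.22 and Slc3a2 by 0.54 ± 0.14 (limma adjusted p = 0.00755, 0.0235 and 0.033). They kept these calls in 19, 15 and 11 of 19 alternatives. Slc18a1, the other vesicle transporter for amines, rose by 0.50 ± 0.12 (limma adjusted p = 0.0313, held in 10 of 19). Of the 7 tested biopterin genes, which supply the cofactor of the hydroxylases, Pts fell by 0.79 ± 0.20 (held in 11 of 19) and Gchfr, which regulates the first enzyme, rose by 0.73 ± 0.13 (held in 17 of 18). Spr (0.17 ± 0.11) did not pass. Of 5 tested serotonin receptor genes 0 passed in limma (0 at an unadjusted p under 0.05), with Htr3a at 0.23 ± 0.17, Htr7 at 0.08 ± 0.13 and Htr1d at -0.03 ± 0.16.

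Th, the tyrosine hydroxylase that feeds dopamine synthesis through Ddc, read 7.30 and 7.38 with water and 7.67 and 7.61 with tungstate in wild-type islets, and 9.46 and 9.23 with water and 8.87 and 7.81 with tungstate in Irs2-/- islets. Every Irs2-/- array was above every wild-type array, and of these treated Irs2-/- replicate 2 was nearest to them. Th rose by 2.00 ± 0.29 in untreated mice (limma adjusted p = 0.00636, held in 19 of 19). Its tungstate difference in Irs2-/- mice was -1.01 ± 0.29 and did not pass (limma adjusted p = 0.208). Hdc rose by 0.94 ± 0.11 (limma adjusted p = 0.00267, held in 18 of 18), and was the one listed gene that passed when tungstate-fed Irs2-/- mice were set against wild-type mice on water (0.76 ± 0.11, limma adjusted p = 0.038, against 0.194% of genes called higher). Tgm2, a transglutaminase, rose by 1.63 ± 0.46 (limma adjusted p = 0.0469), held in 10 of 19.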

How the data were processed

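Islet RNA was hybridised to Affymetrix arrays, 8 in all, with groups taken from the labels. Each probe set has 1 deposited log2 value per array. The authors used RMA (affy, R 2.7.0), per the submitters' processing notes. RMA quantile-normalizes arrays, so a shift of most genes would be removed. Genes were named from the platform annotation, and probe sets naming several genes were not used. Of 183 listed genes with a probe set, 183 matched RefSeq by gene number and 0 had another symbol there.

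The fit used limma 3.58.1 (R 4.3.3) with a mean for each group, 4 residual and 3.89 prior degrees of freedom, and 6 contrasts. It was tested on simulated data. Intervals are 95% intervals of the moderated test. The 9 members and the lists were chosen with earlier results of these data known. Every member is named, as are the up to 3 genes of each pathway list with the smallest p in untreated mice, those past the threshold, and the 3 nearest patterns of each member that passed in the main fit. Single marker genes given as examples, and the genes nearest to Tph1, were chosen after values were seen. Alternatives were other filters, moderation, normalization, probe set rules, array weights, an acinar covariate, the replicate number as a block, only the arrays compared, a threshold of 0.1 and leaving out each array. For the 3 low members they were run without a filter, an addition made after seeing the data.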

Additional observations from a re-analysis of the deposited data

Results flagged for a closer look

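In 3 members the tungstate arrays lay below the untreated arrays in wild-type mice and above them in Irs2-/- mice, without overlap between the arrays, as in 2.68% of all genes. For Abat the tungstate difference was -0.15 in wild-type and 0.23 in Irs2-/- islets, and the difference between these was 0.38 ± 0.15 (limma adjusted p = 0.757). For Ddc the values were -0.31 and 0.29, with a difference of 0.61 ± 0.25 (limma adjusted p = 0.767). For Slc18a2 they were -0.12 and 0.08, with a difference of 0.20 ± 0.15 (limma adjusted p = 0.924 in the fit without a filter). None of the 3 differences passed.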

How the results depend on the processing

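In untreated mice the count of members past the test was 4. It was also 4 in each alternative that left out no single array, besides the fit without a filter. There it was 6, with Tph1 and Tph2 added, both higher. The count over all genes, 2245, ran in these alternatives from 1524 (acinar covariate) to 3511 (adjusted p under 0.1). The Gad1 and Ddc calls each rested on single arrays, as given above. For the other comparisons, where 0 members passed, the exceptions were as follows. With an adjusted p under 0.1 the count was 3 in treated mice and 4 between treated Irs2-/- and untreated wild-type islets. In the latter it was 1 with a variance trend and robust moderation, 1 with median centring and 1 when probe sets of a gene were averaged. Without a filter it was 1 for tungstate in Irs2-/- mice (Tph1). Leaving out each array gave 0 to 2 in treated mice, 0 to 2 for tungstate in Irs2-/- mice, 0 to 3 between treated Irs2-/- and untreated wild-type islets, and 0 for tungstate in wild-type mice and for the interaction. Of the 13 pathway genes past the test, 7 passed with the acinar covariate, 7 with only the arrays compared and 5 to 12 when 1 array was left out. No called value changed sign. With the replicate number as a block the count of members was 4 in untreated mice and 0 elsewhere, and that of pathway genes 13. The numbers pair nothing in the labels, and deviations of same-numbered arrays correlated from -0.066 to 0.42 between groups, so the block is given here only. The number of arrays limits precision, and members near or below 5.27 have little signal over background.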
